A study of Mus musculus with 23 samples.

Results

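Aminoacyl-tRNA synthetases, the enzymes that load each tRNA with its amino acid, were followed in cultured mouse endothelial cells exposed to plasma of 4 kinds of mice. Members were chosen by gene symbol in the platform annotation, not by measured values. They comprised 35 of the 24704 named genes on the array, of which 19 encode cytosolic enzymes and 16 encode mitochondrial enzymes, the latter with symbols ending in 2.

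The cells were primary aortic endothelial cells of strain C57BL/6J, grown to confluence with fetal calf serum and then kept for 48 h with 10% mouse plasma in its place. The plasma donors were wildtype mice (Wildtype, 6 arrays), mice without apolipoprotein E (ApoE-KO, 5 arrays), and mice that lacked apolipoprotein E together with Stabilin-1 (ApoE-Stab1-KO, 6 arrays) or Stabilin-2 (ApoE-Stab2-KO, 6 arrays). All 3 kinds of knockout donor thus shared the loss of apolipoprotein E and 8 weeks of Western diet, and no diet is given for the wildtype donors, so that genotype and diet cannot be told apart in a comparison with Wildtype. The cells themselves carried none of the knockouts. Nothing in the labels ties a replicate to its own culture, plasma pool or donor, so the p-values reflect the spread of these arrays alone, and that spread may be technical.

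Each synthetase first activates its amino acid with ATP and then joins it to the matching tRNA. Cytosolic and mitochondrial protein synthesis mostly use separate enzymes, although Kars and Gars each supply both compartments, and several cytosolic enzymes sit in a multisynthetase complex held together by the scaffold proteins Aimp1, Aimp2 and Eef1e1. When amino acids run short, uncharged tRNA activates the kinase Gcn2, and the transcription factor ATF4 then raises many genes of amino acid supply, among them a number of cytosolic synthetases.

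The values were log2 expression values that had been normalized to nearly one distribution on every array, and they ran from 2.52 to 13.9 with a median of 4.31. Correlations between arrays over all genes lay between 0.992 and 0.997. All 10 endothelial markers lay above the median level of genes (8.27 to 12.8). Markers of other cells ran lower in part: smooth muscle markers from 3.55 to 5.16 (n = 5), fibroblast markers from 2.94 to 6.11 (n = 5) and red blood cell markers from 2.69 to 3.41 (n = 3). Of these, in the same order, 2, 2 and 0 lay above the median level of genes. Of 5 macrophage markers only Cd68 was above the median level of genes (11.2, against 2.98 for Ptprc). Among 4 lymphatic markers 3 were above it (Lyve1 at 12.7, Flt4 at 9.64 and Pdpn at 5.02), and Prox1 was at 3.27. None of the smooth muscle, fibroblast, macrophage, lymphatic or red blood cell markers passed limma's test at an adjusted p under 0.05 against Wildtype in any knockout plasma, and at an unadjusted p under 0.05 there were 4 (ApoE-KO), 3 (ApoE-Stab1-KO) and 4 (ApoE-Stab2-KO) of 22, against 10.5%, 11.3% and 8.49% of all genes. In RNA of a whole culture, fewer cells of a type and less RNA per cell cannot be told apart.

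All 35 synthetases were measured above the median level of genes, and none was lost to a filter. Mean log2 levels over the 23 arrays ran from 6.96 to 10.5 for cytosolic and from 4.71 to 8.00 for mitochondrial genes, which are not compared gene by gene because each probe set has its own response. The SD over arrays lay between 0.0603 and 0.149 for cytosolic and between 0.0735 and 0.229 for mitochondrial genes.

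Promoter sequences are shown for the cytosolic enzymes that carry the letters TGATGNAA, a core of the element through which ATF4 acts, because cytosolic synthetases are textbook targets of that factor. The RefSeq promoter table for GRCm38.p6 (250 bases before to 50 bases after each start, 300 in all) held an entry for 12 of the 19 cytosolic and 14 of the 16 mitochondrial genes. A gene was counted if any of its promoters held the letters on either strand. TGATGNAA was found for 5 of the 12 cytosolic genes (41.7%), for 0 of the 14 mitochondrial genes and for 3.9% of the 18380 genes on the array with an entry. The matches, in capitals, lay before the start of Aars (chr8:111033694-111033773, plus strand, 112 bases upstream), Gars (chr6:55037935-55038000, plus strand, 30 bases upstream) and Tars (chr15:11399659-11399709, minus strand, 15 bases upstream), and after the start of Iars (chr13:49682127-49682154, plus strand, 7 bases) and Yars (chr4:129189896-129189923, plus strand, 3 bases):
Aars: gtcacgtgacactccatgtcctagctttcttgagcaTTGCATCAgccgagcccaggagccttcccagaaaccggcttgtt
Gars: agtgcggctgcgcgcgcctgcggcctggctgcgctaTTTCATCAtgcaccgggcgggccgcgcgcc
Tars: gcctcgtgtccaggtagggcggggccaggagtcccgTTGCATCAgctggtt
Iars: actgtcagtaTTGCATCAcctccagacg
Yars: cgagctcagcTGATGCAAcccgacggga

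A second match followed the start of Aars by 9 bases. The letters CACGTG, an E-box, were found by the same count for 4 of the 12 cytosolic genes (33.3%: Aars, Farsb, Iars and Tars). They were found for 1 of the 14 mitochondrial genes (7.14%, Ears2) and for 9.09% of array genes with an entry. Neither motif contains the other, and a match is only a description of these windows. Both motifs were chosen with results of these data known.

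In cells given ApoE-KO plasma, most cytosolic synthetases read slightly higher than with Wildtype plasma, but no single synthetase passed the test. The median log2 difference (ApoE-KO minus Wildtype) of the 19 cytosolic genes was 0.12, with a range of -0.04 to 0.20, against a median of 0.0026 over all genes. Differences were above 0 for 16 of the 19, against 51.2% of all genes. By limma, 0 of 35 synthetases passed an adjusted p of 0.05 (all genes: 0.53%). At an unadjusted p under 0.05, 11 cytosolic genes were higher and 0 lower, and 0 mitochondrial genes were higher and 2 lower, where 5.41% of all genes were higher and 5.12% lower. The 6629 genes within the level range of the cytosolic synthetases had a median difference of 0.00057, with 50.2% above 0. The number of synthetases at an unadjusted p under 0.05 (all genes, either direction: 10.5%) dropped from 13 to 8 without ApoE-KO replicate 1 and to 7 without ApoE-KO replicate 2.

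**Figure D1:**
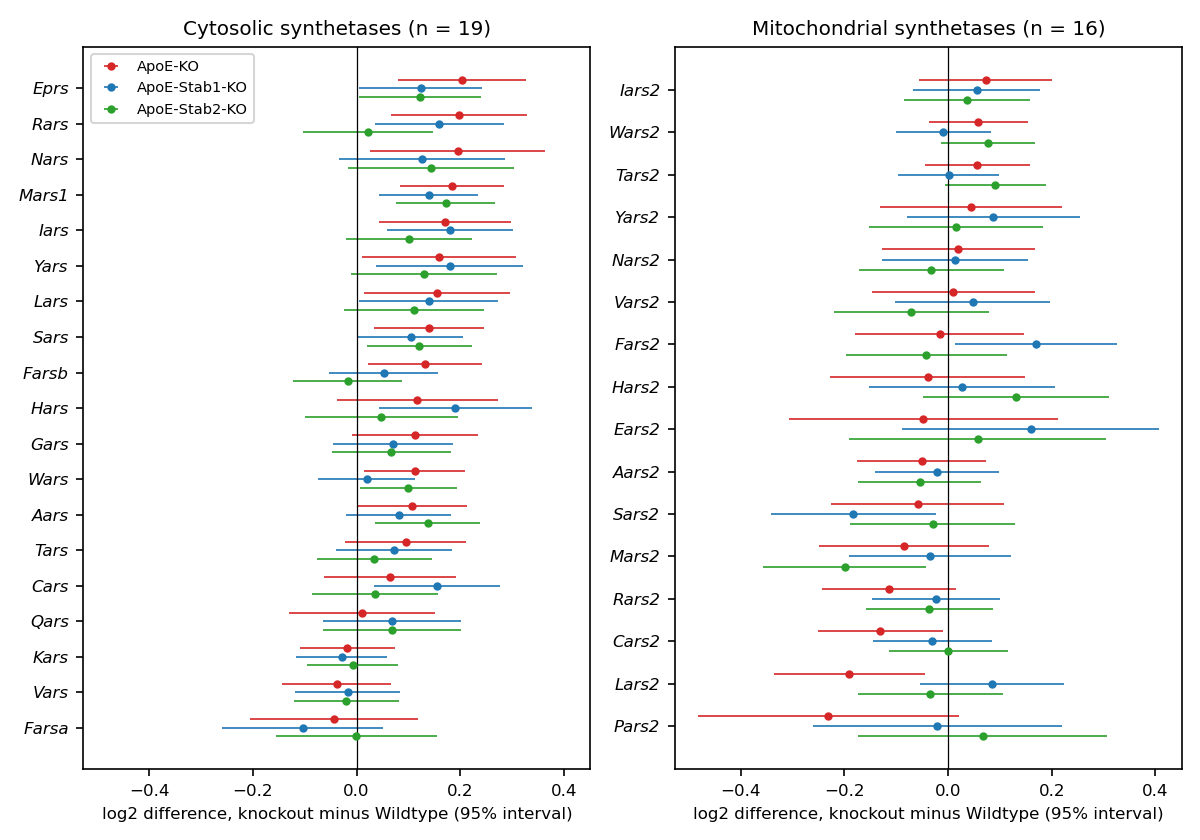
Log2 difference of each synthetase, knockout plasma minus Wildtype plasma (x axis), for the 19 cytosolic (left) and 16 mitochondrial genes (right), ordered by the ApoE-KO difference; points are fitted differences and lines 95% intervals of limma's fit. In ApoE-KO the cytosolic points ran from -0.04 to 0.20 with 16 of 19 above 0, while 10 of 16 mitochondrial points lay below 0.

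With ApoE-Stab1-KO plasma the cytosolic median was 0.10 (range -0.10 to 0.19), again with 16 of 19 above 0. There, limma passed 0 of 35 synthetases (all genes: 0.364%), and at an unadjusted p under 0.05 it gave 9 cytosolic genes higher and 0 lower (all genes: 5.74% higher, 5.55% lower). With ApoE-Stab2-KO plasma the median was 0.07 (range -0.02 to 0.17) with 15 of 19 above 0. Again limma passed 0 of 35 (all genes: 0.178%), and 5 cytosolic genes were higher and 0 lower at an unadjusted p under 0.05 (all genes: 4.27% higher, 4.22% lower). The median over all genes was 0.0037 and -0.0020 in these comparisons. The 3 comparisons share the Wildtype arrays and are set side by side only. Counts of synthetases at an unadjusted p under 0.05 (all genes, either direction: 11.3% and 8.49%) moved with single arrays: for ApoE-Stab1-KO from 11 to 7 without its replicate 1, and to 6 without its replicate 3, Wildtype replicate 1 or Wildtype replicate 6, and for ApoE-Stab2-KO from 6 to 3 without Wildtype replicate 1.

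Limma's F-test over the 4 groups also passed 0 of 35 synthetases, where it passed 0.546% of all genes. At an unadjusted p under 0.05 it gave 6 cytosolic and 2 mitochondrial genes, against 11.9% of all genes, and without ApoE-Stab2-KO replicate 3 these 8 became 5. The smallest adjusted F-test p was 0.140 for Mars1 among cytosolic and 0.207 for Lars2 among mitochondrial genes. The median half-width of a 95% interval for a synthetase was 0.13, and the number of arrays limits this precision.

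Of the enzymes of the multisynthetase complex, Mars1, which charges methionine tRNA, had the smallest p in ApoE-KO. Its Wildtype log2 values had a lowest, median and highest of 8.36, 8.42 and 8.46. ApoE-KO arrays gave 8.65, 8.61, 8.64, 8.50 and 8.60, ApoE-Stab1-KO 8.39, 8.55 and 8.72, and ApoE-Stab2-KO 8.54, 8.58 and 8.67. All ApoE-KO and all ApoE-Stab2-KO arrays lay above all Wildtype arrays, and the ApoE-Stab1-KO arrays overlapped them. In ApoE-KO the difference was 0.18 ± 0.05 (SE), a 1.14-fold level with a 95% interval of 1.06 to 1.22, with limma's adjusted p = 0.103. It was 0.17 ± 0.05 in ApoE-Stab2-KO (adjusted p = 0.181) and 0.14 ± 0.05 in ApoE-Stab1-KO (adjusted p = 0.221), none of which passed. Mars1 was the one cytosolic synthetase whose arrays did not overlap with Wildtype in ApoE-KO (1.08% of all genes, higher) and in ApoE-Stab2-KO (0.636%), and in ApoE-Stab1-KO there was none (0.47%).

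Eprs, a fused enzyme for glutamate and proline, had Wildtype values of 9.30, 9.38 and 9.50 (lowest, median, highest). Its 5 ApoE-KO values were 9.71, 9.70, 9.70, 9.46 and 9.38, and the same summary was 9.41, 9.47 and 9.65 in ApoE-Stab1-KO and 9.45, 9.49 and 9.61 in ApoE-Stab2-KO. ApoE-KO replicates 1 to 3 were above all Wildtype arrays, and replicates 4 and 5 were within them. The ApoE-KO difference of 0.20 ± 0.06 (1.15-fold) did not pass limma's test (adjusted p = 0.153). Without ApoE-KO replicate 5 it was 0.26 and passed (adjusted p = 0.044), the one call of a synthetase under the 31 alternatives tried.

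Rars, the arginine enzyme, gave 9.98, 10.09 and 10.23 in Wildtype as lowest, median and highest. ApoE-KO arrays read 10.37, 10.34, 10.40, 10.14 and 10.18, with ApoE-Stab1-KO at 10.08, 10.25 and 10.43 and ApoE-Stab2-KO at 10.05, 10.10 and 10.20. As for Eprs, ApoE-KO replicates 1 to 3 lay above all Wildtype arrays and the other two among them, and the ApoE-Stab2-KO arrays lay within the Wildtype range. Differences from Wildtype were 0.20 ± 0.06 in ApoE-KO (limma's adjusted p = 0.196), 0.16 ± 0.06 in ApoE-Stab1-KO (adjusted p = 0.296) and 0.02 in ApoE-Stab2-KO, so none passed.

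For Iars, which charges isoleucine tRNA, the Wildtype arrays ran from 9.47 over a median of 9.54 to 9.67. The ApoE-KO values of 9.86, 9.76, 9.88, 9.58 and 9.52 split in the same way, with replicates 1 to 3 above all Wildtype arrays. ApoE-Stab1-KO gave 9.53, 9.77 and 9.82, and ApoE-Stab2-KO arrays were close together at 9.63, 9.65 and 9.68, where 1 Wildtype array overlapped them. The difference from Wildtype was 0.17 ± 0.06 in ApoE-KO (limma's adjusted p = 0.285), 0.18 ± 0.06 in ApoE-Stab1-KO (adjusted p = 0.209) and 0.10 ± 0.06 in ApoE-Stab2-KO (adjusted p = 0.681). None of these passed the test.

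**Figure D2:**
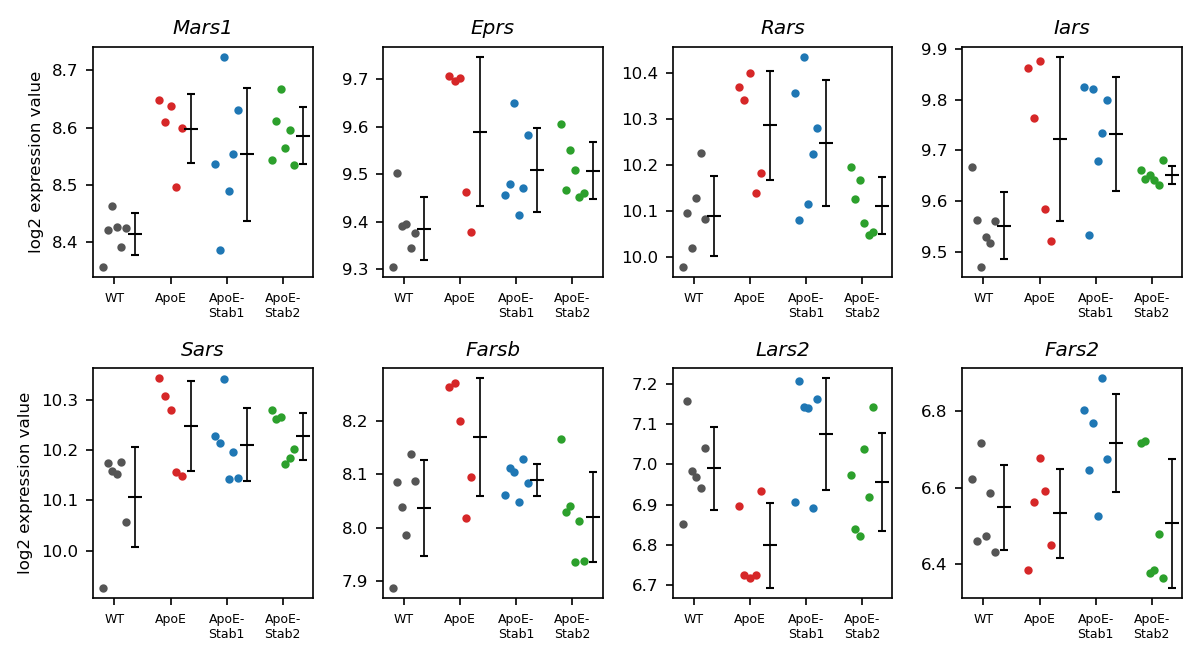
Log2 expression value of 8 synthetases on each array (points; WT is Wildtype, and ApoE, ApoE-Stab1 and ApoE-Stab2 are the 3 knockout plasmas) with the group mean and SD beside them; each panel has its own y axis, which does not start at 0. For Eprs, Rars and Iars, ApoE-KO replicates 1 to 3 lay above all Wildtype arrays; for Lars2, ApoE-KO arrays ran from 6.72 to 6.93 and Wildtype arrays from 6.85 to 7.16.

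Among cytosolic enzymes outside the complex, Sars (serine) had Wildtype values of 9.93, 10.16 and 10.18 as lowest, median and highest. In ApoE-KO it read 10.34, 10.31, 10.28, 10.16 and 10.15, against 10.14, 10.21 and 10.34 in ApoE-Stab1-KO and 10.17, 10.23 and 10.28 in ApoE-Stab2-KO. Wildtype replicate 1 was the low array, and the groups overlapped. The differences from Wildtype of 0.14 ± 0.05 (ApoE-KO), 0.10 ± 0.05 (ApoE-Stab1-KO) and 0.12 ± 0.05 (ApoE-Stab2-KO) did not pass limma's test (adjusted p = 0.295, 0.425 and 0.483).

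Farsb, the beta subunit of the phenylalanine enzyme, gave 7.89, 8.06 and 8.14 in Wildtype and 8.26, 8.27, 8.20, 8.02 and 8.10 in ApoE-KO. ApoE-Stab1-KO arrays ran from 8.05 over 8.09 to 8.13 and ApoE-Stab2-KO arrays from 7.93 over 8.02 to 8.17. ApoE-KO replicates 1 to 3 exceeded every Wildtype array, as did ApoE-Stab2-KO replicate 1. The ApoE-KO difference from Wildtype was 0.13 ± 0.05 (limma's adjusted p = 0.353), and its partner subunit Farsa was at -0.04 in the same comparison.

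Wars, for tryptophan, read 9.87, 9.91 and 10.04 in Wildtype and 10.07, 10.16, 9.93, 10.09 and 9.98 in ApoE-KO. Aars, for alanine, read 8.79, 8.88 and 8.96 in Wildtype and 8.92, 8.99 and 9.15 in ApoE-Stab2-KO. Hars, for histidine, had 7.82, 8.06 and 8.27 in Wildtype and 7.99, 8.30 and 8.37 in ApoE-Stab1-KO. In each case the groups overlapped. Limma gave 0.11 ± 0.05 for Wars in ApoE-KO (adjusted p = 0.387), 0.14 ± 0.05 for Aars in ApoE-Stab2-KO (adjusted p = 0.392) and 0.19 ± 0.07 for Hars in ApoE-Stab1-KO (adjusted p = 0.291), and none passed.

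The 3 cytosolic genes below 0 in ApoE-KO were Vars, Farsa and Kars, named after their values were seen. Vars, the valine enzyme, had Wildtype values of 8.28, 8.43 and 8.60 and ApoE-KO values of 8.28, 8.37, 8.42, 8.39 and 8.54. These ranges coincide, and the difference of -0.04 had a 95% interval from -0.14 to 0.07.

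By catalytic class, the 9 cytosolic class I genes had median differences from Wildtype of 0.16 in ApoE-KO, 0.14 in ApoE-Stab1-KO and 0.10 in ApoE-Stab2-KO, and in the same order the 9 class II genes had 0.11, 0.07 and 0.05. Eprs holds a domain of each class and was left out of this split. The 7 genes in the multisynthetase complex had medians of 0.17, 0.14 and 0.10, and the 12 outside it 0.11, 0.08 and 0.06. Whether these subgroups differ was not tested. Among cytosolic genes with TGATGNAA in the promoter (n = 5) the ApoE-KO median was 0.11 (range 0.09 to 0.17), among those without it (n = 7) 0.13 (range -0.04 to 0.20) and among those with no promoter entry (n = 7) 0.12.

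Mitochondrial synthetases read on both sides of Wildtype in every knockout plasma. Their median differences from Wildtype were -0.04 in ApoE-KO, 0.0071 in ApoE-Stab1-KO and -0.01 in ApoE-Stab2-KO, with 6, 9 and 8 of 16 above 0. At an unadjusted p under 0.05, Lars2 and Cars2 were lower in ApoE-KO, Fars2 higher and Sars2 lower in ApoE-Stab1-KO, and Mars2 lower in ApoE-Stab2-KO. These are 2, 2 and 1 of 16 genes, against 10.5%, 11.3% and 8.49% of all genes, shares near the background. None passed an adjusted p of 0.05 by limma.

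Lars2, the mitochondrial leucine enzyme, had the smallest F-test p of its compartment. Its Wildtype arrays gave 6.85, 6.98 and 7.16 as lowest, median and highest, and ApoE-KO arrays 6.90, 6.72, 6.72, 6.73 and 6.93. ApoE-Stab1-KO arrays gave 6.89, 7.14 and 7.21 and ApoE-Stab2-KO arrays 6.82, 6.95 and 7.14. ApoE-KO replicates 2 to 4 lay below every array of the other groups, and replicates 1 and 5 among them. The difference was -0.19 ± 0.07 for ApoE-KO minus Wildtype (limma's adjusted p = 0.302) and 0.28 ± 0.07 for ApoE-Stab1-KO minus ApoE-KO (adjusted p = 0.560), a 1.21-fold level with a 95% interval of 1.09 to 1.34. Its cytosolic counterpart Lars was at 0.16 for ApoE-KO minus Wildtype.

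Cars2, for cysteine, had Wildtype values of 6.99, 7.10 and 7.16 and ApoE-KO values of 6.99, 6.92, 7.09, 6.74 and 7.06, a difference of -0.13 ± 0.06 (limma's adjusted p = 0.424). Sars2, for serine, read 5.82, 5.91 and 6.08 in Wildtype and 5.58, 5.77 and 5.88 in ApoE-Stab1-KO, a difference of -0.18 ± 0.08 (adjusted p = 0.366). For both the groups overlapped and neither passed.

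Mars2, for methionine, gave 6.43, 6.61 and 6.65 in Wildtype and 6.31, 6.38 and 6.48 in ApoE-Stab2-KO, with only Wildtype replicate 6 within the latter range. ApoE-KO arrays read 6.46, 6.43, 6.67, 6.50 and 6.46, and ApoE-Stab1-KO arrays were wide, at 6.31, 6.54 and 6.88. The ApoE-Stab2-KO difference from Wildtype was -0.20 ± 0.08 (limma's adjusted p = 0.431) and did not pass, while Mars1 in the same comparison was at 0.17.

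Fars2, for phenylalanine, read 6.43, 6.53 and 6.72 in Wildtype, 6.52, 6.72 and 6.89 in ApoE-Stab1-KO and 6.36, 6.43 and 6.72 in ApoE-Stab2-KO. In ApoE-KO its values were 6.38, 6.56, 6.68, 6.59 and 6.45. All groups overlapped. The difference of ApoE-Stab1-KO from Wildtype was 0.17 ± 0.08 (limma's adjusted p = 0.393). Pars2, for proline, read 4.44, 4.77 and 4.93 in Wildtype and 4.39, 4.54, 4.33, 4.36 and 4.95 in ApoE-KO, where only replicate 5 was high, a difference of -0.23 ± 0.12 (adjusted p = 0.529).

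For 14 amino acids a cytosolic gene was set beside a mitochondrial gene. Glutamate is represented by Eprs, which also serves proline, and Ears2, a pair at 0.20 and -0.05 in ApoE-KO, 0.12 and 0.16 in ApoE-Stab1-KO and 0.12 and 0.06 in ApoE-Stab2-KO. The cytosolic difference from Wildtype was the greater in 13 of 14 pairs in ApoE-KO, in 12 of 14 in ApoE-Stab1-KO and in 12 of 14 in ApoE-Stab2-KO. The leucine pair lay at 0.16 (Lars) and -0.19 (Lars2) in ApoE-KO, and the arginine pair at 0.20 (Rars) and -0.11 (Rars2). The exception in ApoE-KO was the valine pair, with -0.04 for Vars and 0.0097 for Vars2. Between knockout plasmas the cytosolic difference was the greater in 4 (ApoE-Stab1-KO minus ApoE-KO), 5 (ApoE-Stab2-KO minus ApoE-KO) and 7 of 14 pairs (ApoE-Stab2-KO minus ApoE-Stab1-KO). Pairs within an array are not replicates, and no test was made of these counts.

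**Figure D3:**
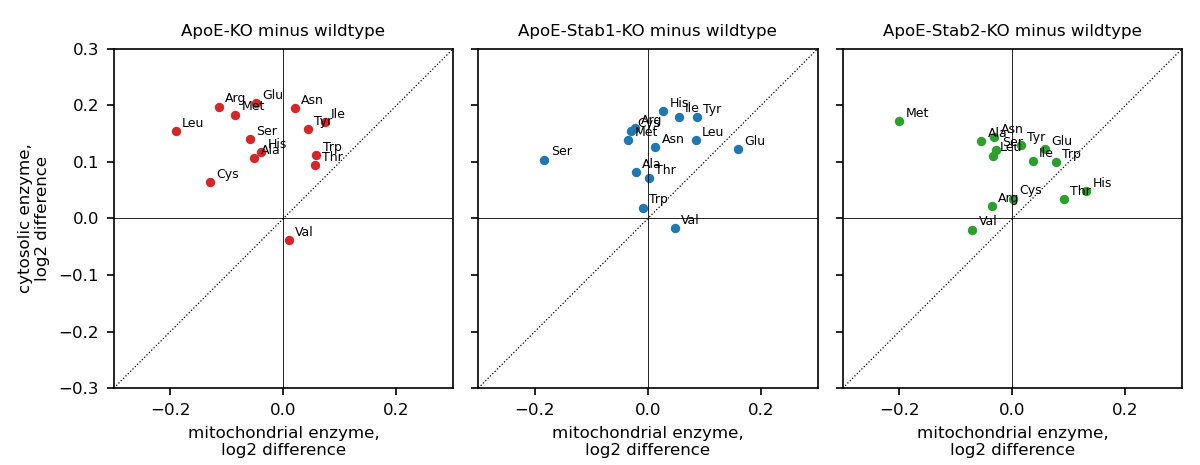
Log2 difference from Wildtype of the cytosolic enzyme (y axis) against that of the mitochondrial enzyme of the same amino acid (x axis) for 14 amino acids in each knockout plasma; the dotted line marks equal differences. Points lay above the line for 13 of 14 amino acids in ApoE-KO and for 12 of 14 in each of the other panels.

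Between knockout plasmas the median cytosolic differences were small. They were -0.03 for ApoE-Stab1-KO minus ApoE-KO, -0.03 for ApoE-Stab2-KO minus ApoE-KO and -0.0023 for ApoE-Stab2-KO minus ApoE-Stab1-KO. Mitochondrial medians were 0.05, 0.02 and -0.03. In the same order, 6, 5 and 8 of 19 cytosolic genes and 11, 9 and 6 of 16 mitochondrial genes were above 0. Of all genes, 50.2%, 48.1% and 48% were above 0. By limma, 0 of 35 synthetases passed in each (all genes: 0.00405%, 0.0243% and 0.0486%). At an unadjusted p under 0.05 there were 2 of 35 (Lars2 and Fars2, higher) in the first, where 5.57% of all genes passed. In the second there were 5 (Farsb and Rars lower, Pars2, Cars2 and Lars2 higher), against 8.36% of all genes. In the third there were 3 (Fars2, Rars and Mars2, lower), against 11% of all genes. For every synthetase the arrays of the groups compared overlapped in all 3 comparisons (no overlap in either direction: 0.368%, 1.33% and 0.806% of all genes).

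The values behind the second comparison were -0.15 ± 0.05 for Farsb (limma's adjusted p = 0.428), -0.18 ± 0.06 for Rars (adjusted p = 0.434) and 0.30 ± 0.12 for Pars2 (adjusted p = 0.512). In the third they were -0.21 ± 0.08 for Fars2 (adjusted p = 0.285), -0.14 ± 0.06 for Rars (adjusted p = 0.410) and -0.16 ± 0.08 for Mars2 (adjusted p = 0.435). The first comparison's third-ranked gene was Wars at -0.09 ± 0.05 (adjusted p = 0.890). Single arrays moved these counts: 2 became 4 on leaving out any of ApoE-KO replicates 3, 4 and 5 or replicate 6 of ApoE-Stab1-KO, and 1 on leaving out replicate 1 of the latter. In the second comparison 5 became 3 without ApoE-KO replicate 2 or 3 or ApoE-Stab2-KO replicate 4, and 2 without ApoE-KO replicate 4. In the third, 3 became 8 without ApoE-Stab1-KO replicate 2, and 5 without ApoE-KO replicate 1, ApoE-Stab1-KO replicate 5, or ApoE-Stab2-KO replicate 1 or 3.

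Averaged over the 19 cytosolic genes and set against the Wildtype mean, the arrays themselves differed within a plasma. Wildtype arrays ran from -0.060 to 0.034 on this log2 scale (SD 0.032, n = 6). ApoE-KO replicates 1 to 3 were at 0.150, 0.171 and 0.165 and replicates 4 and 5 at 0.0316 and 0.0238. The latter pair lay inside the Wildtype range, and the other ApoE-KO arrays above it. ApoE-Stab1-KO arrays ran from 0.0166 to 0.201 (mean 0.090 ± 0.066 SD, n = 6) and ApoE-Stab2-KO arrays from 0.0320 to 0.131 (mean 0.072 ± 0.042 SD, n = 6). In ApoE-Stab2-KO, replicates 1 to 3 (0.114, 0.0760 and 0.131) also read above replicates 4 to 6 (0.0320, 0.0459 and 0.0334). This split was absent elsewhere: replicate 2 was lowest in ApoE-Stab1-KO, and replicate 1 in Wildtype. The ApoE-KO mean was 0.108 ± 0.074 (SD, n = 5). For mitochondrial genes the group means were -0.044 ± 0.034 in ApoE-KO, 0.020 ± 0.068 in ApoE-Stab1-KO and -0.0016 ± 0.013 in ApoE-Stab2-KO.

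**Figure D4:**
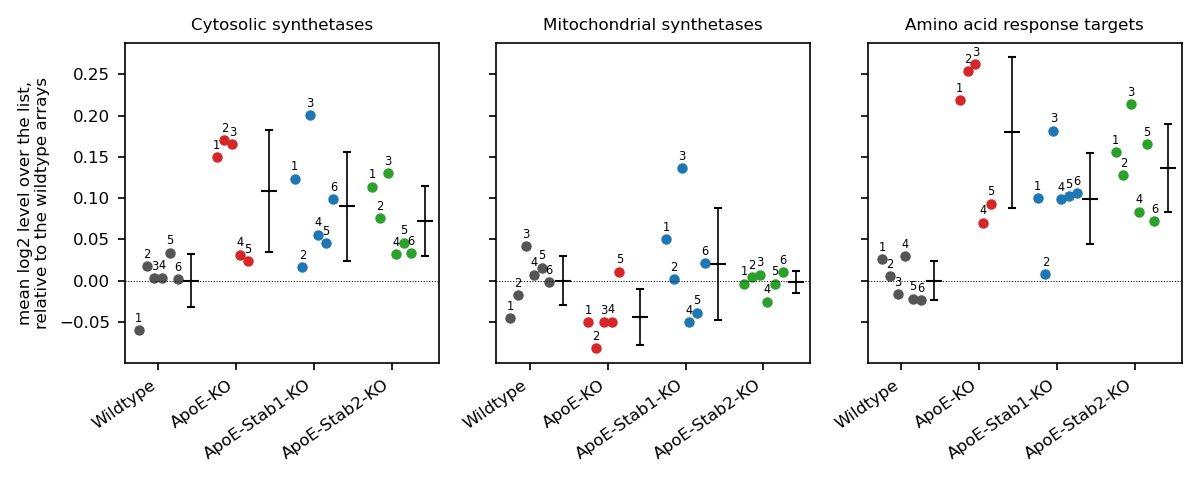
Mean log2 level of a gene list on each array relative to the Wildtype mean, for the cytosolic synthetases, the mitochondrial synthetases and 28 target genes of the amino acid response; points are arrays with their replicate numbers, bars the group mean and SD. ApoE-KO replicates 1 to 3 were high for cytosolic synthetases (0.150 to 0.171) and for targets (0.219 to 0.262), and replicates 4 and 5 were lower in both.

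Within groups, cytosolic genes tended to be high or low on the same arrays. After group means were removed, the mean correlation between 2 cytosolic genes over the 23 arrays was 0.27, between 2 mitochondrial genes 0.036 and between a cytosolic and a mitochondrial gene 0.080, against 0.00042 over all genes. Normalization of every array to nearly the same distribution keeps the value over all genes near 0, so it does not measure how unusual 0.27 is. Rars, Gars and Eprs followed the mean of the other cytosolic genes most closely (r = 0.87, 0.83 and 0.79), and Vars ran against it (r = -0.38). The cytosolic mean correlated with the mitochondrial mean at r = 0.39 over 23 arrays and at 0.76 over the 18 arrays outside ApoE-KO. These are descriptions of genes measured on the same arrays, which share RNA and normalization.

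The scaffold of the multisynthetase complex was measured in all 3 genes, and none passed (limma). Eef1e1 read 8.02, 8.24 and 8.28 in Wildtype and 8.52, 8.48, 8.62, 8.30 and 8.36 in ApoE-KO, without overlap (1.08% of all genes, higher). Its difference was 0.25 ± 0.07 (limma's adjusted p = 0.154), against 0.08 for Aimp1 and 0.05 for Aimp2. In ApoE-Stab1-KO the 3 genes had a median of 0.04 and in ApoE-Stab2-KO of 0.12.

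Other genes that act on tRNA beside the synthetases did not pass either in any comparison with Wildtype. The 4 measured genes of mitochondrial amidation and formylation, which make glutaminyl-tRNA and formylmethionyl-tRNA, included Gatc, a subunit of the amidating enzyme. Its Wildtype arrays were tight at 9.90, 9.93 and 9.94, below all ApoE-KO arrays (10.12, 10.09, 10.12, 10.04 and 10.10). They also lay below all ApoE-Stab1-KO arrays (lowest 9.95) and all ApoE-Stab2-KO arrays (lowest 9.96). Without overlap and higher were 1.08% (ApoE-KO), 0.47% (ApoE-Stab1-KO) and 0.636% (ApoE-Stab2-KO) of all genes. Gatc differed from Wildtype by 0.17 ± 0.04 in ApoE-KO (limma's adjusted p = 0.085) and by 0.17 ± 0.04 in ApoE-Stab1-KO (adjusted p = 0.073). In ApoE-Stab2-KO its difference was smaller, at 0.09, and the smallest of limma's adjusted p among the 4 genes was 0.554. Among 7 paralogs and editing proteins, Aarsd1, which removes misloaded amino acids from alanine tRNA, was at -0.19 ± 0.06 in ApoE-KO (adjusted p = 0.158). The selenocysteine genes (n = 7) had a median of -0.03 in ApoE-KO. The medians of CCA addition and tRNA end processing (n = 16) and of tRNA export and delivery (n = 8) were 0.03 and 0.02, with Xpot, the tRNA exporter, at 0.16 ± 0.07 (adjusted p = 0.403; chosen after its values were seen).

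Of 13 measured sensors and regulators of the amino acid response, 1 rose in ApoE-KO (all genes: 0.34% higher) and the same number in ApoE-Stab1-KO (all genes: 0.174% higher), in both cases Atf5, a transcription factor translated and transcribed with ATF4. Atf5 read 6.80, 7.10 and 7.45 in Wildtype, 7.50, 7.67, 7.59, 7.36 and 7.34 in ApoE-KO and 7.32, 7.51 and 7.60 in ApoE-Stab1-KO. Wildtype replicate 1, at 7.45, overlapped the knockout groups, and the other Wildtype arrays lay below them. Atf5 rose by 0.42 ± 0.09 in ApoE-KO (limma's adjusted p = 0.025) and 0.42 ± 0.08 in ApoE-Stab1-KO (adjusted p = 0.018). The ApoE-KO call was lost without ApoE-KO replicate 1, 2 or 3 or Wildtype replicate 2 or 6 (adjusted p from 0.0548 to 0.106), and that in ApoE-Stab1-KO without Wildtype replicate 6 (0.0571). With only the arrays of the groups compared, the adjusted p was 0.122 and 0.131. Atf4 itself was at 0.12 ± 0.06 in ApoE-KO (adjusted p = 0.519), and Ddit3 and Trib3, further factors of this response, at 0.07 and 0.08.

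Among 28 measured target genes of the amino acid response, 4 rose in ApoE-KO, 0 in ApoE-Stab1-KO and 1 in ApoE-Stab2-KO (all genes, higher: 0.34%, 0.174% and 0.113%), with none lower. At an unadjusted p under 0.05, limma gave 14, 9 and 13 higher (all genes: 5.41%, 5.74% and 4.27%) and 2, 0 and 1 lower (all genes: 5.12%, 5.55% and 4.22%). Median differences from Wildtype were 0.19, 0.08 and 0.13. The list was drawn up with earlier results of these data known.

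Aldh1l2, a mitochondrial enzyme of folate metabolism, gave 4.75, 5.33 and 5.53 in Wildtype and 6.29, 6.50, 6.20, 5.83 and 5.69 in ApoE-KO, without overlap (1.08% of all genes, higher). It rose by 0.82 ± 0.15 (limma's adjusted p = 0.010), and without ApoE-KO replicate 2 by 0.72, which did not pass (adjusted p = 0.0537). Mthfd2, another mitochondrial folate enzyme, rose by 0.46 ± 0.11 (adjusted p = 0.048), from Wildtype values of 7.65, 7.86 and 8.04 to 8.48, 8.52, 8.51, 8.12 and 7.89. Its replicate 5 lay within the Wildtype range.

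Slc1a5, a glutamine transporter, read 7.14, 7.17 and 7.36 in Wildtype and 7.53, 7.59, 7.55, 7.51 and 7.81 in ApoE-KO, without overlap (1.08% of all genes, higher). It rose by 0.38 ± 0.08 (limma's adjusted p = 0.035). Psat1, an enzyme of serine synthesis, had 8.07, 8.12 and 8.20 in Wildtype, all below ApoE-KO (8.47, 8.59, 8.45, 8.25 and 8.28) and below ApoE-Stab2-KO (8.32, 8.48 and 8.57). Of all genes, 1.08% (ApoE-KO) and 0.636% (ApoE-Stab2-KO) were higher without overlap. Psat1 rose by 0.29 ± 0.06 in ApoE-KO (adjusted p = 0.046) and by 0.34 ± 0.06 in ApoE-Stab2-KO (adjusted p = 0.014). Asns, which makes asparagine, was at 0.41 ± 0.10 in ApoE-KO and did not pass (adjusted p = 0.062).

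Several of these calls rested on single arrays. Of the 23 arrays left out in turn, 8 ended the call of Slc1a5 (ApoE-KO replicates 1, 2, 3 and 5 and Wildtype replicates 1, 2, 3 and 6, adjusted p up to 0.0900). For Psat1 in ApoE-KO 13 did so (ApoE-KO replicates 1 to 3, all 6 of Wildtype, replicates 4 and 5 of ApoE-Stab1-KO and 1 and 4 of ApoE-Stab2-KO, up to 0.166). For Mthfd2 it was 18 (ApoE-KO replicates 1 to 3, Wildtype except replicate 2, ApoE-Stab1-KO replicates 2, 4, 5 and 6 and all 6 of ApoE-Stab2-KO, up to 0.170). Psat1 in ApoE-Stab2-KO lost its call without replicate 3 of that group (0.0559). With only the arrays of the groups compared, Psat1 and Mthfd2 in ApoE-KO had an adjusted p of 0.0770 and 0.120, and with the replicate number as a block 0.0949 and 0.0976.

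The mean of the target genes moved with the cytosolic synthetases over the arrays. ApoE-KO replicates 1 to 3 stood at 0.219, 0.254 and 0.262 above the Wildtype mean and replicates 4 and 5 at 0.0705 and 0.0933. With group means removed, the means of the cytosolic synthetases and of the targets had r = 0.80 and Spearman's rho = 0.75 over 23 arrays, and without the 2 arrays farthest from the median (ApoE-Stab1-KO replicate 3 and ApoE-KO replicate 5) r was 0.74. Without those 2 arrays rho was 0.67. Over the 18 arrays outside ApoE-KO r was 0.67 and rho was lower, at 0.50. For the mitochondrial synthetases and the targets r was 0.053 over 23 arrays, and it was not computed for the arrays outside ApoE-KO. Over those 18 arrays the cytosolic and mitochondrial means had r = 0.76. Movement with the targets is therefore not shown to be particular to the cytosolic genes.

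Some endothelial markers read lower in the cells given knockout plasma, and others higher. Of 10, 2 fell in ApoE-KO and 1 in ApoE-Stab1-KO (all genes, lower: 0.19% in both), while in ApoE-Stab2-KO limma passed 0 (all genes, lower: 0.0648%). At an unadjusted p under 0.05 there were 3 lower and 0 higher in ApoE-KO (all genes: 5.12% lower, 5.41% higher). The same rule gave 4 lower and 1 higher in ApoE-Stab1-KO (5.55% and 5.74%), and 2 lower and 1 higher in ApoE-Stab2-KO (4.22% and 4.27%). Differences from Wildtype ran from -0.27 to 0.03 in ApoE-KO and from -0.25 to 0.27 in ApoE-Stab1-KO. In ApoE-Stab2-KO they ran from -0.14 to 0.43. Those above 0 were 1, 4 and 4 of 10. Egfl7, a protein secreted by endothelium, fell by 0.27 ± 0.04 in ApoE-KO (limma's adjusted p = 0.0014) and by 0.21 ± 0.04 in ApoE-Stab1-KO (adjusted p = 0.012, and 0.0712 with only the arrays of the groups compared). Cldn5, a tight junction protein, fell by 0.27 ± 0.06 in ApoE-KO (adjusted p = 0.046), and lost its call in 18 of 23 cases of an array left out (ApoE-KO replicates 1, 2, 3 and 5, ApoE-Stab1-KO replicates 5 and 6, all 6 of ApoE-Stab2-KO and all 6 of Wildtype, adjusted p up to 0.151) and with the replicate block (0.0606). The part of these markers in the synthetase differences was not tested.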

How the data were processed

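Per the submitters' processing notes, the authors made the deposited log2 values with RMA (background correction, quantile normalization, 1 value per probe set). The RMA version and the genome build were not given in the sources used here. Such values are relative within an array, so a shift of all genes together is not seen. Sorted values of arrays differed by at most 0.0019. Probe sets were named from the platform annotation (24705 of 25428 with 1 symbol, 723 without), and the brighter of 2 probe sets with one symbol was kept. The test was limma 3.58.1 under R 4.3.3 (lmFit and eBayes, 1 mean per group over 23 arrays, 19 residual and 4.19 prior degrees of freedom), adjusted by Benjamini-Hochberg over 24704 genes, after a check on simulated data. "Rose" and "fell" mean an adjusted p under 0.05, and errors of differences are standard errors. Promoter matches and figures were made in Python 3.11.15 with matplotlib 3.10.9.

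The synthetases as a family, and the lists of related and marker genes, were chosen with earlier results of these data known; within the family, members were taken by symbol alone. Named were every called gene, the 8 cytosolic and 6 mitochondrial synthetases with the smallest F-test p, the 3 with the smallest p in each comparison, their partners in the other compartment, and up to 3 genes of each related list. Gars, Tars and Yars were named for their promoters. Atf4, Ddit3, Trib3, Asns, Xpot, Vars, Farsa, Kars, Cd68, Ptprc, Lyve1, Flt4, Pdpn and Prox1 were picked with their values in view.

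The settings tried besides were centring, a repeat of quantile normalization, genes above the median level, trend and robust settings, array weights, a replicate block, every probe set, the compared groups alone, and each array left out.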

Additional observations from a re-analysis of the deposited data

Results flagged for a closer look

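In 4 of 68 groups of arrays 1 array stood far from the others, where chance gives about 1 in 20. Hars in ApoE-Stab1-KO replicate 6 was at 7.99, with the other 5 arrays of that plasma between 8.25 and 8.37. Mars2 in ApoE-KO replicate 3 was at 6.67, against 6.43 to 6.50 in the other 4. Mars2 in Wildtype replicate 6 was at 6.43, against 6.58 to 6.65. The mean of the cytosolic synthetases in Wildtype replicate 1 was -0.0598 relative to the Wildtype mean, against 0.0018 to 0.0341 in the other 5 arrays.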

How the results depend on the processing

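Over 31 alternatives, the number of synthetases called stayed at 0 in each comparison with one exception: leaving out 1 array at a time gave 0 to 1 in ApoE-KO minus Wildtype, where Eprs was called without ApoE-KO replicate 5 (0.26, limma's adjusted p = 0.044). No named value that was called changed its sign. The medians of the cytosolic and mitochondrial genes moved by less than the spread between arrays (SD 0.0599 and 0.0472); with 1 array left out the cytosolic median in ApoE-KO ran from 0.102 to 0.159 and the mitochondrial one from -0.0639 to -0.0044. The mitochondrial median kept its sign in 28 of 31 alternatives in ApoE-Stab1-KO (from -0.0087 to 0.0444 with 1 array left out) and in 29 of 31 in ApoE-Stab2-KO (from -0.0222 to 0.0024). Between knockout plasmas, the sign was kept in 26 of 31 for the cytosolic median of ApoE-Stab2-KO minus ApoE-Stab1-KO and in 30 of 31 for the mitochondrial median of ApoE-Stab2-KO minus ApoE-KO, and in all 31 for the other medians. Array weights lowered the number of synthetases at an unadjusted p under 0.05 in ApoE-Stab1-KO from 11 to 5. With the replicate number as a block, 0 synthetases were called in ApoE-KO minus Wildtype and the cytosolic median was 0.117. Over all genes the numbers did not pair the arrays: 1 of 33 same-numbered pairs correlated above 0.1, and 6 of 23 arrays correlated best with their own number. Whether replicate numbers mark a batch that the cytosolic synthetases share was not tested. Among the named results the block ended the calls of Psat1, Mthfd2 and Cldn5 in ApoE-KO and no other. The median half-width of a synthetase's 95% interval was 0.13.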
